A study of Mus musculus with 8 samples.

Results

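This account covers 9 mouse genes around the handling of organic osmolytes in macrophages, together with a pair of organic anion carriers. They are Slc6a12, Slc6a13, Slc6a6, Slc5a3, Slc38a2, Akr1b3, Nfat5, Slco4a1 and Slco2b1. Every probe of the array annotated to one of these symbols was taken, which gave 16 probes of 45281 (30789 symbols). The genes were chosen from the Ac-LDL contrast of these same arrays, in which Slc6a12 and Slco4a1 were low after loading, so their Ac-LDL values below are a description and support nothing.

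The study asked which genes change when macrophages take up modified lipoprotein and become foam cells. Peritoneal macrophages elicited with thioglycollate from 8-week-old C57/BL6 mice were given acetylated low-density lipoprotein (Ac-LDL, 120 μg/ml) for 24 h, and control cells were mock treated. Acetylation lets scavenger receptors take up the particle, and all cells of both groups had been elicited by the irritant. Each group had 4 arrays (Illumina Mouse WG-6 v2.0), labelled biological replicates 1 to 4, with replicates 1 and 2 of both groups on one slide and replicates 3 and 4 on the other.

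Organic osmolytes are small solutes, such as betaine, taurine, inositol and sorbitol, that cells gather or release to hold their volume when the outside salt concentration changes. Nfat5 is the transcription factor that responds to hypertonic stress and drives the genes for osmolyte carriers and for aldose reductase, and it is also used by macrophages in inflammatory responses. Carriers of the SLCO family move organic anions, including thyroid hormones and steroid conjugates, across the cell membrane.

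The 3 probes on which the description turns are shown by their first 30 of 50 bases, 5′ to 3′, because each stands alone for its gene among the tested probes. The transcript-strand sequences are those of the array annotation.
Slc6a12: cgtgtgagcctccagcatcacccctgcagc
Slco4a1: gatcccatctgaggtgccacgcagcttgtg
Slco2b1: cctgtttcccagtttgtacaggaatagcct
The annotation places the Slco4a1 probe at chr2:180209463-180209512 on the plus strand and the Slco2b1 probe at chr7:106806941-106806990 on the minus strand, in a genome build it does not name. It gives no position for the Slc6a12 probe, whose transcript is NM_133661.3. Of the 16 probes, 12 had coordinates, and 15 carried an accession that RefSeq lists under the same symbol. The exception was the Slc6a6 probe ILMN_1252493. Whether a probe lies in coding sequence or a UTR is not given in the annotation.

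Slc6a12 and Slc6a13 are adjacent genes on chromosome 6, with 0 annotated genes between them in GRCm38.p6. The 250 bases before the first listed start of Slc6a12 (RefSeq, GRCm38.p6, chr6:121342324-121342573, plus strand) are printed because Nfat5 acts through the tonicity-responsive enhancer, and a match to that enhancer's consensus is in capitals.
Slc6a12 upstream: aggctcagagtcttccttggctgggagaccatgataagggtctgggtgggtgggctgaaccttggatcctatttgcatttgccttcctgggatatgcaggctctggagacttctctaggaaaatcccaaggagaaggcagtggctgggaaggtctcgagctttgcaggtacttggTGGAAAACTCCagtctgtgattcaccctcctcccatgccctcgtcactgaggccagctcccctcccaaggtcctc
The match began 75 bases before the start. The letters TGGAAA, searched on both strands and contained in the consensus, occurred before 6104 of 32851 start sites (18.6%), and the whole consensus before 1416 (4.31%). Start sites were listed for 7 of the 9 genes, 16 in all. TGGAAA occurred before 4 of them, in Slc6a12, Slc6a13 and Slco2b1. The whole consensus occurred before 2 of them, in Slc6a12 and, on the other strand at 77 bases before one start, in Slc6a13. A match of letters describes the sequence and does not mark a site in use.

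A probe was tested where its detection p-value was at most 0.05 on at least 4 of 8 arrays, which kept 17122 probes. This held for 10 of the 16 probes and for 7 of the 9 genes. Slc6a13, a GABA carrier, and Slc5a3, the sodium/inositol cotransporter, were not detected on any array. Their deposited signals were 36.2 to 50.9 and 37.5 to 45.7, while the median signals of the arrays were 42.5 to 46.4. The other untested probes were 1 of 3 for Slc38a2, detected on 3 arrays, 1 of 2 for Akr1b3 and 1 of 3 for Nfat5, on 0 arrays each, and 1 of 2 for Slco4a1, on 2 arrays. Of the 10 tested probes, 8 were detected on all 8 arrays. Levels below are log2 intensities after background correction and quantile normalization with an offset of 16, which shrinks the differences of dim probes, and levels of different probes are not set against each other.

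Slc6a12, the betaine/GABA carrier, was lower after Ac-LDL in every pair of arrays. The control arrays read 7.43, 7.41, 8.18 and 8.51 for replicates 1 to 4, and the Ac-LDL arrays 6.12, 6.17, 6.89 and 7.34. Every Ac-LDL array lay below every control array, and on each treatment the arrays of the second slide were the higher. The means were 7.88 ± 0.55 (SD, n = 4) in control and 6.63 ± 0.59 (SD, n = 4) with Ac-LDL, a difference of -1.25 (SE 0.32), or 2.38-fold lower. The pairs gave -1.32, -1.24, -1.29 and -1.17, a narrow range beside the spread of either group. On the scanner scale the deposited signals were 220, 174, 331 and 435 in control and 85.2, 90.4, 148 and 179 with Ac-LDL. In bulk RNA, fewer cells of a type and less RNA per cell cannot be told apart.

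Slco4a1, a carrier of thyroid hormones and other organic anions, was low on most arrays and high on 2 with its tested probe, ILMN_2661340. Its control arrays read 5.07, 5.51, 8.18 and 8.61, and its Ac-LDL arrays 4.92, 5.11, 5.74 and 6.22. The 2 control arrays of the second slide stood above all others, and the remaining control arrays lay among the Ac-LDL arrays, so the groups overlap. The untested Slco4a1 probe, ILMN_2614548, was not detected on those 2 control arrays (4.58 and 4.54, detection p-values 0.113 and 0.132). The means were 6.84 ± 1.81 (SD, n = 4) and 5.50 ± 0.60 (SD, n = 4), a difference of -1.34 (SE 0.74). The pairs gave -0.16, -0.39, -2.44 and -2.38, all lower with Ac-LDL but far apart between the slides. Without control replicate 4 the difference was -0.75, without control replicate 3 it was -0.90, and without control replicate 1 it was -1.92.

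Slco2b1, a carrier of steroid conjugates and other organic anions, ran the other way. Its control arrays read 4.66, 5.77, 6.86 and 7.44, and its Ac-LDL arrays 6.33, 7.29, 6.86 and 7.78. Control replicate 1 was not detected (detection p-value 0.0716), and the groups overlap. The means were 6.18 ± 1.23 (SD, n = 4) and 7.07 ± 0.62 (SD, n = 4), a difference of 0.89 (SE 0.54), with pair differences of 1.68, 1.52, 0.00 and 0.35. Both large pair differences belong to the first slide. Without control replicate 1 the difference was 0.38.

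**Figure D1:**
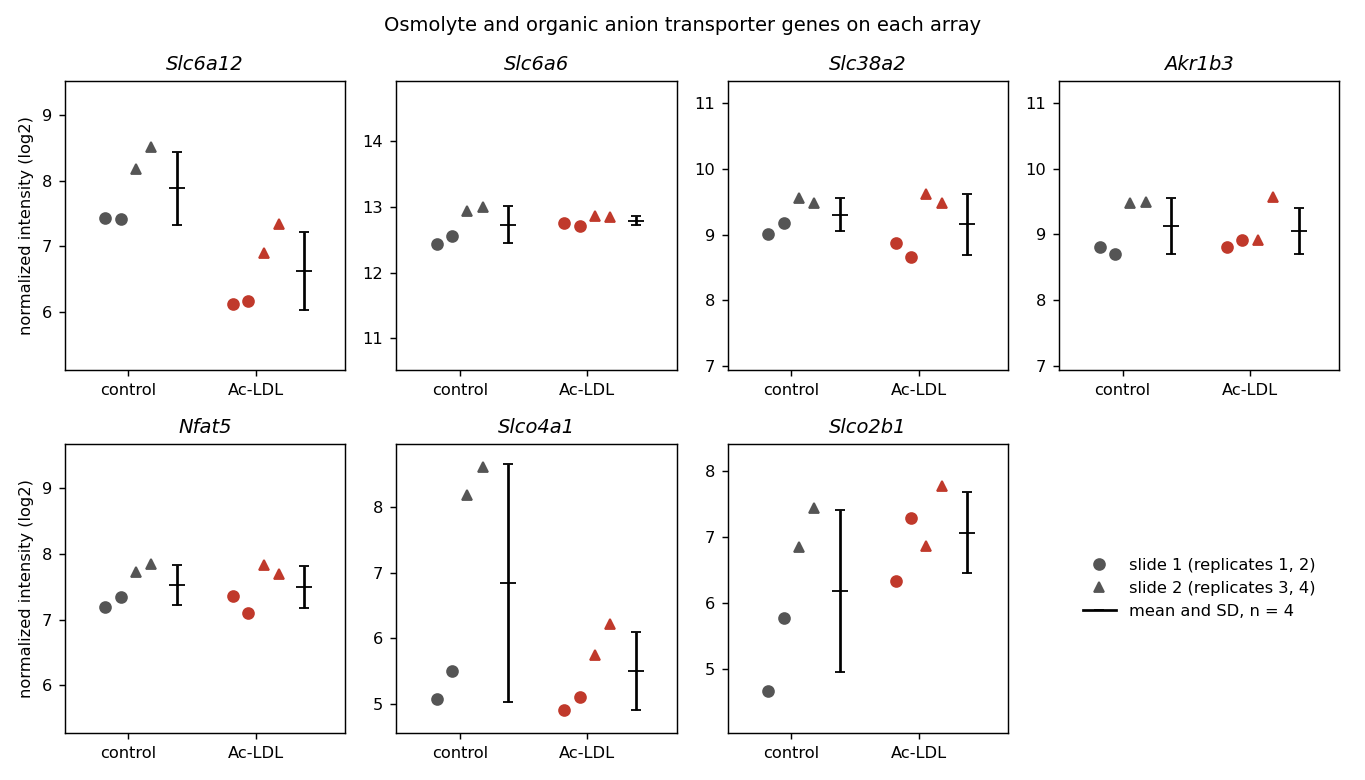
Normalized log2 intensity (vertical axis, each panel spanning the same range) of the 7 detected genes on each array, by group, with circles for slide 1, triangles for slide 2 and bars for the mean and SD of 4 arrays. For genes with several tested probes, the probe with the highest mean is drawn. Slc6a12 with Ac-LDL lies wholly below control, and Slco4a1 is high only on control replicates 3 and 4.

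The remaining carriers and enzymes differed little between treatments. Slc6a6, the taurine carrier, was bright on every array with the probe ILMN_2641467. It read 12.44, 12.55, 12.94 and 12.99 in control and 12.75, 12.71, 12.86 and 12.85 with Ac-LDL, a difference of 0.06 (SE 0.14). The Ac-LDL values lie inside the range of the control values. A second Slc6a6 probe, ILMN_1252493, was near background, between 4.70 and 5.34, and gave 0.04 (SE 0.14).

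Slc38a2, a sodium-coupled carrier of neutral amino acids that is induced by amino acid shortage and by hypertonic stress, had 2 tested probes. ILMN_1244123 read 9.01, 9.18, 9.55 and 9.48 in control and 8.87, 8.66, 9.62 and 9.48 with Ac-LDL, a difference of -0.15 (SE 0.22). ILMN_2955671 read 8.09, 7.60, 8.41 and 8.38 in control and 7.66, 7.63, 7.78 and 8.04 with Ac-LDL, a difference of -0.34 (SE 0.18). With both probes the groups overlap, and the size differed between the probes, which lie at different places of the same transcript.

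Akr1b3, aldose reductase, which makes sorbitol from glucose, read 8.80, 8.70, 9.48 and 9.49 in control and 8.81, 8.91, 8.91 and 9.56 with Ac-LDL (ILMN_2591917). The difference was -0.07 (SE 0.23). Nfat5 itself read 7.20, 7.35, 7.72 and 7.85 in control and 7.36, 7.11, 7.83 and 7.69 with Ac-LDL (ILMN_2612448), a difference of -0.03 (SE 0.19). A further Nfat5 probe, ILMN_2735633, was near background, between 4.90 and 5.37, and gave 0.08 (SE 0.12). For Akr1b3 and for both Nfat5 probes the groups overlap and each mean lies within 1 SD of the other.

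Among all 10 tested probes, 6 were lower by mean with Ac-LDL, beside 49.6% of all tested probes. Of these, 2 were lower in all 4 pairs (Slc6a12 and Slco4a1; 10.4% of all tested probes) and 1 was higher in all 4 (Slco2b1; 11.5%). The groups did not overlap for 1 probe, Slc6a12, where 1.68% of tested probes lay wholly below control, and for none in the other direction, where 2.11% lay wholly above. By size, Slco4a1 had the 10th and Slc6a12 the 17th lowest difference of all tested probes, and Slco2b1 the 6th highest. In limma with no block, 0 of the 10 were called at an adjusted p under 0.05 (0.0409% of all tested probes, 7 probes, with 891 at an unadjusted p under 0.05). Blocking on the replicate number gave a call for 1 of the 10, Slc6a12 (0.444%, 76 probes), and blocking on the slide gave a call for that probe alone (0.321%, 55 probes). Since the genes were chosen on this contrast, nothing is read from these counts.

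**Figure D2:**
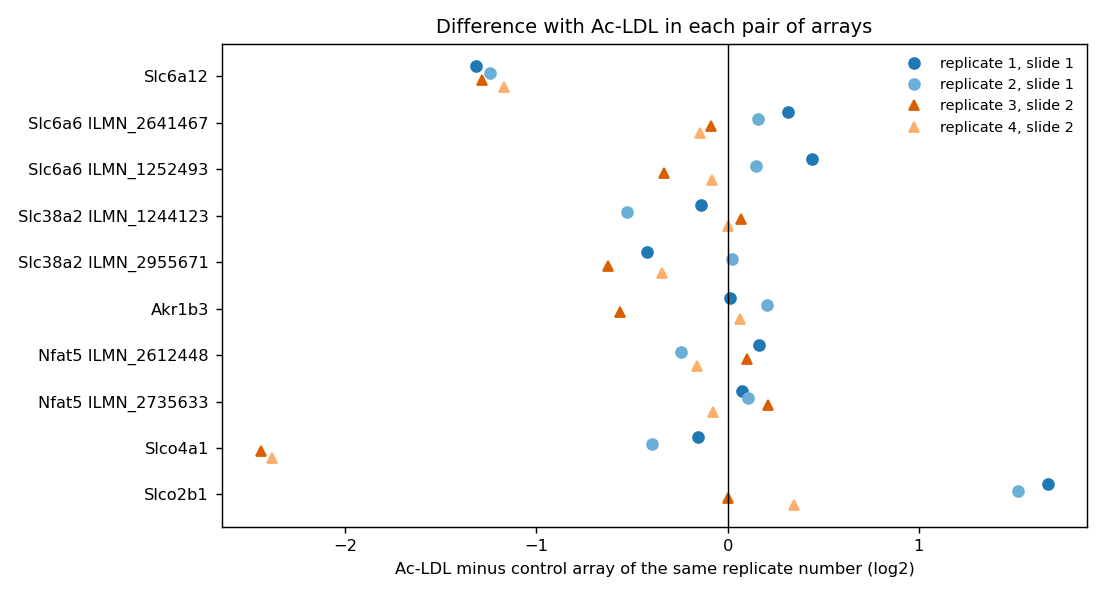
Difference between the Ac-LDL and the control array of the same replicate number (horizontal axis, log2) for the 10 tested probes, circles for slide 1 and triangles for slide 2. The 4 pairs of Slc6a12 lie between -1.32 and -1.17, while those of Slco4a1 and Slco2b1 split by slide.

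The slides were compared next, as each held 2 control and 2 Ac-LDL arrays. The genes were chosen on the Ac-LDL contrast, and this comparison was named with earlier results of these arrays known. For Slco4a1 and Slco2b1 it is not separate from that choice, because the control arrays that set their Ac-LDL differences (replicates 3 and 4 for Slco4a1, 1 and 2 for Slco2b1) also set much of their slide differences. The slides hold different biological replicates, so a slide and its set of replicates cannot be told apart. The first principal component (50.2% of the variance) separated the slides.

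Of the 10 tested probes, 9 were higher on slide 2 and passed the test (limma with treatment in the design, adjusted p under 0.05 over all tested probes), or 7 of 8 without Slco4a1 and Slco2b1. This fit takes the 8 arrays as independent, although same-numbered arrays deviated together from their group means. With treatment and slide fitted, the consensus correlation of same-numbered arrays was 0.06, so a random block changes the fit little. With the replicate number as a random block 9 were again called (10.7% of all tested probes called higher), and with each same-numbered pair averaged, 2 means per slide, 5 were called (7.38%). Both fits were added after the data were seen. Of all tested probes, 23.6% were called in either direction and 11.7% were called higher on slide 2, while 47.3% were higher there by mean. The median difference of all tested probes was -0.02. Among probes detected on all 8 arrays, 8 of 8 of these genes' probes were called higher on slide 2, beside 12% of all such probes. All 4 arrays of slide 2 lay above all 4 of slide 1 for 6 of the 10 probes, beside 10.7% of all tested probes. Both of these counts include Slco4a1, whose slide difference is not separate from the choice of genes. Probes of the same gene share a transcript, so the 9 probes stand for 7 genes.

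Slco4a1 showed the greatest slide difference of the 7 genes, 2.03 (SE 0.36, limma adjusted p = 0.00443), the 6th in size of all tested probes. Its mean was 5.29 in control and 5.02 with Ac-LDL on slide 1, and 8.39 and 5.98 on slide 2. The control arrays thus differed between slides by 3.10 and the Ac-LDL arrays by 0.97. Slco2b1 differed by 1.22 (SE 0.37, limma adjusted p = 0.0378), by 1.93 among control arrays, of which replicate 1 was not above background, and 0.51 among Ac-LDL arrays. This call was lost under 9 of 15 alternatives, with 0.85 (adjusted p = 0.0894) without control replicate 1.

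Slc6a12 differed between slides by 0.95 (SE 0.11, limma adjusted p = 0.000992), or 1.93-fold, with 0.92 among control arrays and 0.98 among Ac-LDL arrays. Its difference between slides was therefore of similar size in each treatment, and all Ac-LDL arrays of slide 2 still lay below the control arrays of slide 1. Nfat5 differed by 0.52 with ILMN_2612448 (SE 0.09, limma adjusted p = 0.00362) and by 0.26 with ILMN_2735633 (adjusted p = 0.0383). Without background correction the dim probe ILMN_2735633 gave 0.12 (limma adjusted p = 0.125).

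Slc38a2, Akr1b3 and Slc6a6 were likewise higher on slide 2. Slc38a2 differed by 0.61 with ILMN_1244123 (SE 0.10, limma adjusted p = 0.00354) and by 0.41 with ILMN_2955671 (adjusted p = 0.0342). Akr1b3 differed by 0.56 (SE 0.14, adjusted p = 0.0171) and Slc6a6 by 0.30 with ILMN_2641467 (SE 0.09, adjusted p = 0.0397). The dim Slc6a6 probe ILMN_1252493 gave -0.05 (adjusted p = 0.802). The number of these probes called fell from 9 to 4 when control replicate 2, 3 or 4 was left out and to 5 with no filter on dim probes. The share of all tested probes called higher on slide 2 fell as well, from 11.7% to 7.45%, 7.01% and 7.79%, and to 3.12% with no filter. Slc6a12, Slco4a1, Slc38a2 (ILMN_1244123) and Nfat5 (ILMN_2612448) were called under all 16 alternatives that gave a slide value. Slc38a2 ILMN_2955671 was called under 8 of them, Slc6a6 ILMN_2641467 under 8, Nfat5 ILMN_2735633 under 5 and Akr1b3 under 12.

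**Figure D3:**
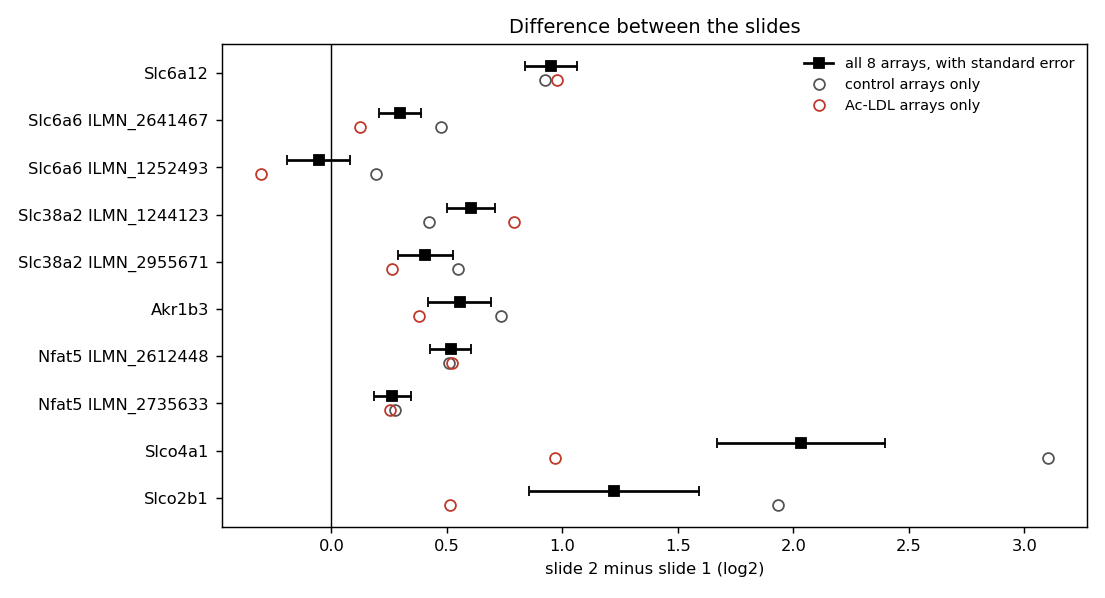
Difference between slide 2 and slide 1 (horizontal axis, log2) for the 10 tested probes, squares for all 8 arrays with the standard error from limma and open circles for each treatment alone. All squares but that of Slc6a6 ILMN_1252493 lie above 0, and Slco4a1 reaches 3.10 in the control arrays.

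Of macrophage markers, 5 were called higher on slide 2. Of 12 listed symbols 10 were tested; all 10 were higher on slide 2 by mean, 5 of them called (beside 11.7% of all tested probes), and their summed normalized intensity ran from 72500 to 76894 on slide 1 and from 83908 to 86555 on slide 2. The lysozyme probes make up much of this sum, so it shows little of the dimmer markers, of which Emr1 differed by 1.19, Itgam by 1.01 and Csf1r by 0.79. Lyzs and Cd14 were the other 2 called, while Fcgr1, Mertk, Lyz2, Cd68 and Lyz1 did not pass, at 0.54, 0.38, 0.14, 0.06 and 0.04. These are counts of symbols: Lyzs and Lyz2, which may name the same gene, are counted apart, as are Emr1 and Adgre1 among the 12 listed. Msr1, a scavenger receptor, was not detected on any array. Mesothelial and stromal markers (9 tested) summed to 14662 to 16852 on slide 1 and 12157 to 14857 on slide 2, with Dcn, Upk3b and collagen genes detected on all arrays. Of these, Lum (-0.99, limma adjusted p = 0.0121) and Col1a1 (-0.41, adjusted p = 0.0199) were called lower on slide 2 and Krt8 (0.35, adjusted p = 0.0333) higher. The 1 tested T cell marker, Lck, read 31.5 to 48.7 on slide 1 and 23.6 to 31.0 on slide 2, while Cd3d, Cd3g, Cd4 and Cd8a were not detected. Lck was called lower on slide 2 (-0.54, limma adjusted p = 0.0234). The 2 tested B cell markers, Ms4a1 and Cd22, summed to 79.7 to 107 on slide 1 and 105 to 122 on slide 2, and Cd79b and Pax5 were not detected. Cd22 was called higher on slide 2 (0.39, limma adjusted p = 0.028), while Ms4a1 (-0.09) did not pass. The part of any of these in the slide differences was not tested.

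Between treatments the macrophage sum ran from 72500 to 86555 in control and from 75836 to 86480 with Ac-LDL, and the mesothelial and stromal sum from 12157 to 16852 and from 13429 to 15251. By mean, 6 of the 10 macrophage markers were higher with Ac-LDL and 4 lower, with Fcgr1 at 0.61 (SE 0.27, higher in 4 of 4 pairs) and Cd14 at -0.48 (SE 0.26, lower in 4 of 4 pairs). Among macrophage markers only Mertk, an engulfment receptor, was called with the replicate block (0.56, SE 0.08, limma adjusted p = 0.0364 in the blocked fit), and none without it. S100a8, the 1 tested granulocyte and mast cell marker, ran from 553 to 617 in control and from 646 to 721 with Ac-LDL, while S100a9, Epx, Prg2, Siglecf, Cpa3, Mcpt4, Kit and Mpo were not detected on any array. The part of S100a8-expressing cells in the Ac-LDL values was not tested.

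It was then asked whether the Ac-LDL difference itself differed between slides. For Slc6a12 it did so by 0.05 (limma interaction, adjusted p = 0.968), with -1.28 within slide 1 and -1.23 within slide 2. For Slco4a1 the difference was -0.28 within slide 1 (1.21-fold lower) and -2.41 within slide 2 (5.32-fold lower), an interaction of -2.14 (SE 0.30, adjusted p = 0.199). This did not pass the threshold, while without background correction the interaction was -1.72 (SE 0.19, adjusted p = 0.0126). Control replicates 3 and 4 set both the interaction and the Ac-LDL difference on which Slco4a1 was chosen, so nothing is read from either value. This term rests on 2 pairs of arrays per slide.

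For Slco2b1 the difference was 1.60 within slide 1 and 0.18 within slide 2, an interaction of -1.42 (adjusted p = 0.594). Control replicates 1 and 2 set much of both this interaction and the gene's Ac-LDL difference, so nothing is read from it. Within slides, Slc6a6 (ILMN_2641467) gave 0.24 and -0.11 and Slc38a2 (ILMN_1244123) -0.33 and 0.04, with interactions of -0.35 (adjusted p = 0.588) and 0.37 (adjusted p = 0.615). The other tested Slc38a2 probe, ILMN_2955671, gave -0.20 and -0.49, an interaction in the opposite direction of -0.29 (limma adjusted p = 0.773). Over all tested probes, 0% were called for the interaction in limma (0 probes, lowest adjusted p 0.133), with 1435 at an unadjusted p under 0.05, and 5 were called without background correction.

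Other genes of the pathways were read from lists written with earlier results of these arrays known. None of the genes on the 7 lists that follow was called for Ac-LDL in limma, with or without a block. Enzymes and carriers of betaine, taurine, inositol and glycerophosphocholine metabolism had 15 of 24 genes tested, 9 higher and 6 lower by mean, with a median difference of 0.03 beside 0.00 for all tested probes. Over the alternatives this median ran from 0.01 without replicate 1 to 0.12 without Ac-LDL replicate 4. Cdo1, which begins the route from cysteine to taurine, read -0.40 (SE 0.09), with all Ac-LDL arrays below all control arrays. Next came Pnpla6, a phospholipase (listed as Nte), at -0.08 (SE 0.12) and Slc44a2, a choline carrier, at -0.03 (SE 0.08). Akr1b8, an aldo-keto reductase, read 0.30 (SE 0.14), Impa2, an inositol monophosphatase, 0.24 (SE 0.11) and Slc44a1, a choline carrier, 0.19 (SE 0.18). Between slides, 5 of these genes were called higher on slide 2 and 1 lower, beside 11.7% of all tested probes called higher and 23.6% in either direction.

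Genes of osmotic signalling and cell volume had 18 of 20 tested, 16 higher and 2 lower by mean, with a median of 0.10. Wnk1, a kinase that controls cation-chloride cotransport, read 0.36 (SE 0.23) and the potassium-chloride cotransporter Slc12a7 read 0.25 (SE 0.15). The 2 lower genes were Slc12a2, which brings chloride in, at -0.09 (SE 0.11), and Stk39, a kinase downstream of Wnk1, at -0.03 (SE 0.19). The third lowest, the helicase Dhx9, read 0.04 (SE 0.15). Between slides 4 were called higher on slide 2 and 3 lower, beside 11.7% of all tested probes called higher and 23.6% in either direction. Wnk1 stood at 0.66 (limma adjusted p = 0.00114).

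Other targets of Nfat5 had 7 of 14 tested, 1 higher and 6 lower by mean, with a median of -0.31, or -0.15 without background correction. S100a4, a calcium-binding protein, read -0.48 (SE 0.31), Ccl2, a monocyte chemokine, -0.40 (SE 0.16) and Sgk1, a salt-regulated kinase, -0.34 (SE 0.19). At the other end, the water channel Aqp1 read 0.06 (SE 0.27), Hspa1a, a heat shock protein, -0.04 (SE 0.13) and Vegfc, a lymphatic growth factor, -0.14 (SE 0.18). Nos2, Hspa4l and, on all but 1 array each, Il6 and Lta were not detected. Between slides 2 were called higher on slide 2 and 1 lower, beside 11.7% of all tested probes called higher and 23.6% in either direction. By mean, 2 of the 7 were higher on slide 2, with a median slide difference of -0.24. S100a4 was higher by 0.90 (limma adjusted p = 0.00175) and Sgk1 lower, at -0.54 (adjusted p = 0.00244). These targets thus did not share one direction between slides.

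Among other carriers of the same families few were detected. Of 17 other SLC6 genes 3 were tested, with Slc6a9, a glycine carrier, at -0.23 (SE 0.13), Slc6a8, the creatine carrier, at -0.10 (SE 0.12) and Slc6a19, a neutral amino acid carrier, at 0.14 (SE 0.10), and none was called between slides. Of 23 other SLC38 and SLC5 genes, with the inositol carrier Slc2a13, 7 were tested, 2 higher and 5 lower, with a median of -0.06 that ran from -0.12 without control replicate 3 to -0.01 without replicate 4. The vitamin carrier Slc5a6 read -0.27 (SE 0.14), Slc38a4 -0.14 (SE 0.11) and Slc38a10 -0.09 (SE 0.11), while Slc38a6 read 0.22 (SE 0.15), Slc38a9, a lysosomal amino acid sensor, 0.12 (SE 0.15) and Slc38a7 -0.03 (SE 0.17). Slc38a9 (0.37, limma adjusted p = 0.0161) and Slc38a6 (0.32, adjusted p = 0.0412) were called higher on slide 2 and Slc5a6 (-0.34, adjusted p = 0.0161) lower. Of all tested probes, 23.6% were called between slides. Of 13 other SLCO genes 2 were tested. Their median was -0.13, and moved to -0.02 without control replicate 1 and -0.23 without control replicate 4. Slco3a1 read -0.15 (SE 0.12) and Slco2a1, the prostaglandin carrier, -0.10 (SE 0.19), and Slco2a1 was lower on slide 2, at -0.49 (limma adjusted p = 0.00959), against the direction of Slco4a1 and Slco2b1.

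Because Slc38a2 is also induced through Atf4 when amino acids are short, genes of that response were read beside it. Of 13 listed, 11 were on the array and 9 were tested, 1 higher and 8 lower by mean, with a median of -0.43. The median was -0.25 without control replicate 1 and -0.28 without control replicate 2. Trib3, a pseudokinase, read -0.78 (SE 0.36), Ddit3, a stress transcription factor, -0.72 (SE 0.71) and Asns, asparagine synthetase, -0.44 (SE 0.13), with all Asns values with Ac-LDL below all control values. Slc36a1, a lysosomal amino acid carrier, read 0.17 (SE 0.13), Slc7a11, the cystine carrier, -0.14 (SE 0.20) and Slc1a4 -0.28 (SE 0.14). Between slides, 1 of these genes was called higher on slide 2 and 3 lower, beside 11.7% of all tested probes called higher and 23.6% in either direction. Slc7a11 was higher (0.54, limma adjusted p = 0.00468), as was Slc38a2. Ddit3 (-2.04, adjusted p = 0.00169), Trib3 (-0.99, adjusted p = 0.00415) and Slc36a1 (-0.30, adjusted p = 0.0188) were lower, opposite to Slc38a2. The Ac-LDL difference of Ddit3 was -1.58 within slide 1 and 0.15 within slide 2 (interaction adjusted p = 0.133, the lowest of all tested probes).

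Among the tested genes of other symbols whose values over the 8 arrays lay closest to those of Slc6a12, by the root mean square difference after each probe was centred on its mean, were LOC100048556 (0.33), Dio2 (0.34), Tnfrsf26 (0.39) and Lrp8 (0.42), where Slc6a12 itself varied by 0.80. LOC100048556 is annotated as similar to monocyte chemoattractant protein-5, and Dio2 activates thyroid hormone. These 4 were lower with Ac-LDL by mean, between -0.95 (LOC100048556) and -0.62 (Tnfrsf26), and higher on slide 2, between 0.59 (Tnfrsf26) and 1.00 (LOC100048556).

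The closest to Slco4a1 were Ifi27 (0.52), Msr2 (0.61), Cx3cr1 (0.65), LOC100048556 (0.67) and Tgfbi (0.75), where Slco4a1 varied by 1.35. Ifi27 is induced by interferon, Cx3cr1 is the fractalkine receptor and Tgfbi is a matrix protein. Within slide 1 these 5 differed between treatments by -0.61 (LOC100048556) to 0.00 (Msr2), and within slide 2 by -1.69 (Ifi27) to -0.74 (Tgfbi). The 8 arrays share treatment and slide, so likeness over them is a description.

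**Figure D4:**
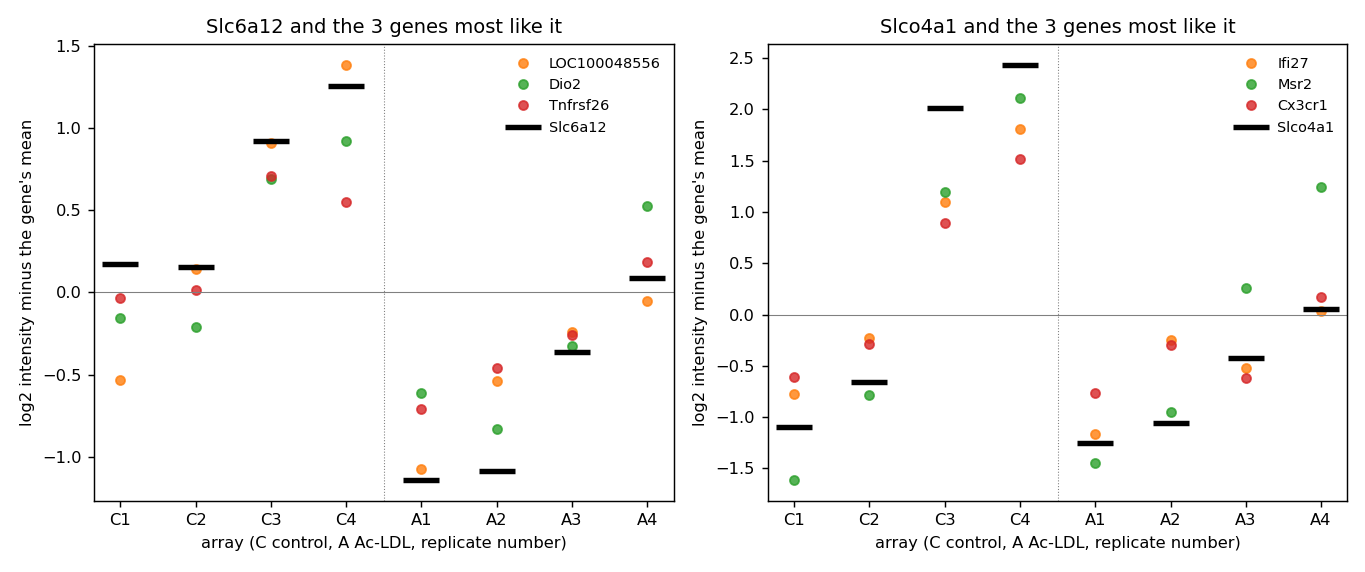
Log2 intensity minus each gene's own mean (vertical axis) on the 8 arrays (C control, A Ac-LDL, with the replicate number) for Slc6a12 and Slco4a1 (black bars) and the 3 genes most like each (coloured points). Slc6a12 and its nearest genes are high on C3 and C4 and low on A1 and A2, and Slco4a1 stands above its nearest genes on C3 and C4.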

How the data were processed

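RNA of 8 macrophage cultures (4 control, 4 Ac-LDL) was measured on Illumina bead arrays. The authors deposited BeadStudio output with, for each probe and array, an intensity (average bead signal, not normalized), its bead standard error, the number of beads and a detection p-value; BeadStudio is named in the submitters' processing notes and its settings are not given in the sources used here. The deposited intensities and detection p-values were used in the tests; bead numbers had medians of 43 to 44 per array, and 16679 to 17439 probes were detected on each array. The number of arrays limits the precision.

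Intensities were normalized with neqc (limma 3.58.1, R 4.3.3; offset 16, negative controls inferred from detection p-values), and a probe was kept when 4 or more arrays had a detection p-value no higher than 0.05. Treatment was fitted with no block in limma (lmFit, eBayes) because the study's methods name an unpaired test; slide was tested with treatment in the design, and their interaction in a further fit. P-values were adjusted by Benjamini-Hochberg over all 17122 tested probes, and a probe was called under 0.05. The code was tested on simulated data.

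Deviations of same-numbered arrays from their group means correlated at 0.579, 0.479, 0.468 and 0.629 across probes. Those of different numbers on the same slide correlated at 0.188 to 0.447 and those on different slides at -0.546 to -0.318. These deviations carry the slide difference. With treatment and slide fitted, the consensus correlation of same-numbered arrays was 0.06, so little pairing by number was left beyond the slide. The labels alone do not say what a shared number marks.

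The genes, lists and comparisons were chosen with earlier results of these data known. Named genes were all 9 genes, the 3 largest rises and 3 largest falls of each pathway and transporter list (using, per gene, its brightest tested probe; marker lists are given by counts, summed levels and defining markers), any called gene, and for Slc6a12 and Slco4a1 the 5 nearest genes; 2 genes under this rule are not reported here. Promoter sequences are from RefSeq (GRCm38.p6). Alternatives were a replicate block, a slide block, no background correction, median scaling, cyclic loess, no filter or a stricter one on dim probes, a trended robust prior, the methods' t-test and leaving out arrays or pairs.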

Additional observations from a re-analysis of the deposited data

Results flagged for a closer look

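The Ac-LDL array of replicate 4 read 9.56 for Akr1b3 (ILMN_2591917), apart from the other Ac-LDL arrays at 8.81, 8.91 and 8.91. This was 1 of 20 groups of 4 arrays examined, and chance sets about 1 in 20 apart.

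For 3 probes both pairs of one slide moved one way and both pairs of the other slide the opposite way. The Ac-LDL difference on slide 2 minus that on slide 1 was 0.37 for Slc38a2 (ILMN_1244123, limma interaction adjusted p = 0.615), -0.35 for Slc6a6 (ILMN_2641467, adjusted p = 0.588) and -0.50 for Slc6a6 (ILMN_1252493, adjusted p = 0.607). None of these interactions passed the threshold. The other tested Slc38a2 probe, ILMN_2955671, was lower with Ac-LDL on both slides by mean, at -0.20 and -0.49 (limma interaction -0.29, adjusted p = 0.773).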

How the results depend on the processing

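The number of all tested probes called for Ac-LDL was 7, and became 76 with the replicate block, 55 with the slide block, 14 with median scaling, 16 with a trended robust prior, 0 with no filter on dim probes and 0 by the methods' t-test after adjustment, and 0 to 15 when arrays or pairs were left out. The pairing by replicate number, and likewise the slide block, brought 1 probe of the 9 genes (Slc6a12) under the threshold, where the fit with no block called 0. The interaction called 5 probes without background correction, against 0. The slide fit called 4042 probes, 2376 with same-numbered pairs averaged, and 2344 to 4496 when single arrays were left out. It called 9 probes of the 9 genes, with 5 without a filter, 5 with pairs averaged and 4 to 8 when single arrays were left out. Of all tested probes, 11.7% were called higher on slide 2 in the main fit. That share was 3.12% without a filter (3074 of 45281 called in either direction), 7.38% with pairs averaged and 7.01% to 13.2% without single arrays. Slide calls were lost for Akr1b3 without control replicate 2, 3 or 4, for Slc6a6 (ILMN_2641467) without any one control array or Ac-LDL replicate 2, and for Slco2b1 without any one control array or Ac-LDL replicate 1 or 4; all 3 also lost the call with no filter on dim probes, Slc6a6 with median scaling (adjusted p = 0.0551) and Slco2b1 with the trended robust prior (adjusted p = 0.123). Slc38a2 ILMN_2955671 lost its call under 8 of 16 alternatives, among them leaving out control replicate 2, 3 or 4 or Ac-LDL replicate 1, 2 or 4, and Nfat5 ILMN_2735633 under 11 of 16, among them leaving out any one array but Ac-LDL replicate 4. With pairs averaged, the calls lost were those of both these probes, Slc6a6 and Slco2b1. The Ac-LDL difference of Slc6a12 ran from -1.49 to -0.98, that of Slco4a1 from -1.92 to -0.75 and that of Slco2b1 from 0.38 to 1.30, with no change of sign, while those of Akr1b3 (ILMN_2591917), Nfat5 (ILMN_2612448), Slc38a2 (ILMN_1244123) and Slc6a6 (ILMN_2641467) changed sign under 4, 6, 1 and 3 of 21 alternatives. Where calls were lost or gained, the cause was not tested. Dim probes near background limit Slco4a1 on slide 1, Slco2b1 in control replicate 1, and Nfat5 ILMN_2735633 and Slc6a6 ILMN_1252493 on every array.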
